A study of Mus musculus with 13 samples.

Results

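Clustered histone genes are the short genes of the Hist1, Hist2 and Hist3 loci, which supply most of the histone protein that a cell needs when it copies its DNA. They were taken as every row of the RNA-seq table whose Ensembl identifier maps to a symbol that starts with Hist1h, Hist2h, Hist3h or Hist4h, or to the newer symbol of such a gene. The rule found 44 of the 17849 rows, and no expression value entered it. By class these were 6 genes for the linker histone H1, 11 for H2A, 11 for H2B, 7 for H3 and 9 for H4. By place, 35 lay in the Hist1 locus on mouse chromosome 13, 7 in the Hist2 locus on chromosome 3 and 2, Hist3h2a and Hist3h2ba, in the Hist3 locus on chromosome 11.

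The RNA came from sorted mouse thymocytes that carry both CD4 and CD8, an intermediate step on the way to mature T cells, with 2 Rad21 KO libraries and 2 wild type (WT) libraries. Rad21 is a subunit of cohesin, the ring complex that holds sister chromatids together and shapes chromatin loops, and the comparison asks what its loss does to transcription. The labels of these 4 libraries give genotype and cell type alone, with no strain, age or sex, and they do not say how Rad21 was deleted or whether the libraries came from separate mice. The p-values below therefore measure the spread between these libraries, which may be technical.

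H2A, H2B, H3 and H4 form the core around which DNA is wrapped in the nucleosome, and H1 binds the DNA between cores. Most of these genes are transcribed during S phase, when DNA is copied, and their messages end in a stem-loop that the protein Slbp binds, in place of a poly(A) tail. Library preparation here removed ribosomal RNA and did not select for poly(A), so messages without a tail were kept.

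Depth and identity of the libraries were as follows. The Rad21 KO libraries held 9384505 and 6914654 counts, and the WT libraries 6633506 and 6500819. Lars2 and the noncoding gene Gm15564, chosen after their values were seen, made up 34.5% of Rad21 KO replicate 1 and 12.6% of Rad21 KO replicate 2, against 5.84% of WT replicate 1 and 7.47% of WT replicate 2. Rad21 itself stood at 67.9 and 65.7 CPM (counts scaled by library total and TMM factor) in Rad21 KO and at 271 and 233 CPM in WT, a log2 fold change of -1.91 (SE 0.12, edgeR adjusted p = 0.000862), so the targeted RNA was low in both libraries labelled KO. All 7 markers of double-positive thymocytes were detected in every library. Their summed levels were 9287 and 8005 CPM in Rad21 KO and 13097 and 11726 CPM in WT. All 7 fold changes were below 0, and in 5 of the 7 both Rad21 KO libraries lay below both WT libraries (background 29.2%). Past the threshold, 3 of the 7 (Rag1, Rag2 and Dntt) were lower in Rad21 KO, against a background of 5.17% of all tested genes. In bulk RNA, fewer cells of a type and less RNA per cell cannot be told apart. Markers of double-negative thymocytes, which carry neither CD4 nor CD8, summed to 19.3 and 23.3 CPM in Rad21 KO and 21.7 and 23.3 CPM in WT. Most of that was Il2ra. Summed markers of B cells lay between 0.274 and 1.52 CPM and of erythroid cells between 2.05 and 4.03 CPM over the 4 libraries. Myeloid markers summed to 13.3 and 17.4 CPM in Rad21 KO and 25.3 and 29.4 CPM in WT. Most of that gap was Itgam, at 8.35 and 8.62 CPM in Rad21 KO and 17.5 and 23.96 CPM in WT. Itgam was called lower in Rad21 KO (log2 fold change -1.29, edgeR adjusted p = 0.0141). Lyz2 and Csf1r overlapped between the genotypes, with log2 fold changes of 0.34 and -0.26. Thymic epithelial markers summed to 9.72 and 12.4 CPM in Rad21 KO and 2.73 and 1.80 CPM in WT, most of it Epcam. Foxn1 stayed at or under 0.273 CPM. The part of these other cells in the histone values was not tested.

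No clustered histone gene passed the threshold for a difference between Rad21 KO and WT. Of the 44 genes, 41 had enough counts to be tested, and 0 were higher and 0 lower at an adjusted p under 0.05, against a background of 12.8% of the 12003 genes tested (7.6% higher and 5.17% lower in Rad21 KO; edgeR's quasi-likelihood test with Benjamini-Hochberg adjustment). At an unadjusted p under 0.05 there were 4 of 41, Hist1h4a, Hist1h3a, Hist3h2a and Hist1h3e, all higher in Rad21 KO, against a background of 29.4%. DESeq2 called 2 higher, Hist1h3a and Hist1h4a (background 6.51%), and limma-voom called 0. The median log2 fold change of the 41 genes was 0.08, beside -0.01 for all tested genes, with 25 genes above 0 and 16 below. That median changed sign without Rad21 KO replicate 2 (-0.03), without WT replicate 2 (-0.09) and when libraries were scaled to their summed histone counts, a scaling chosen after the data were seen (-0.06, where the median of all genes moved to -0.18).

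The test could not resolve small differences. The median 95% interval of a member reached 0.44 log2 units to either side of its fold change, and the narrowest reached 0.32. These intervals carry no adjustment for the number of genes. In 34 of the 41 genes the values of the 2 genotypes overlapped, and in 7 they did not (background 58.9%). In 6 of these, both Rad21 KO libraries lay above both WT libraries (background 29.7%), and in 1, Hist2h3c2, both lay below (background 29.2%). These 6 were Hist3h2ba, Hist3h2a, Hist1h3a, Hist1h3e, Hist1h4a and Hist1h4b.

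**Figure D1:**
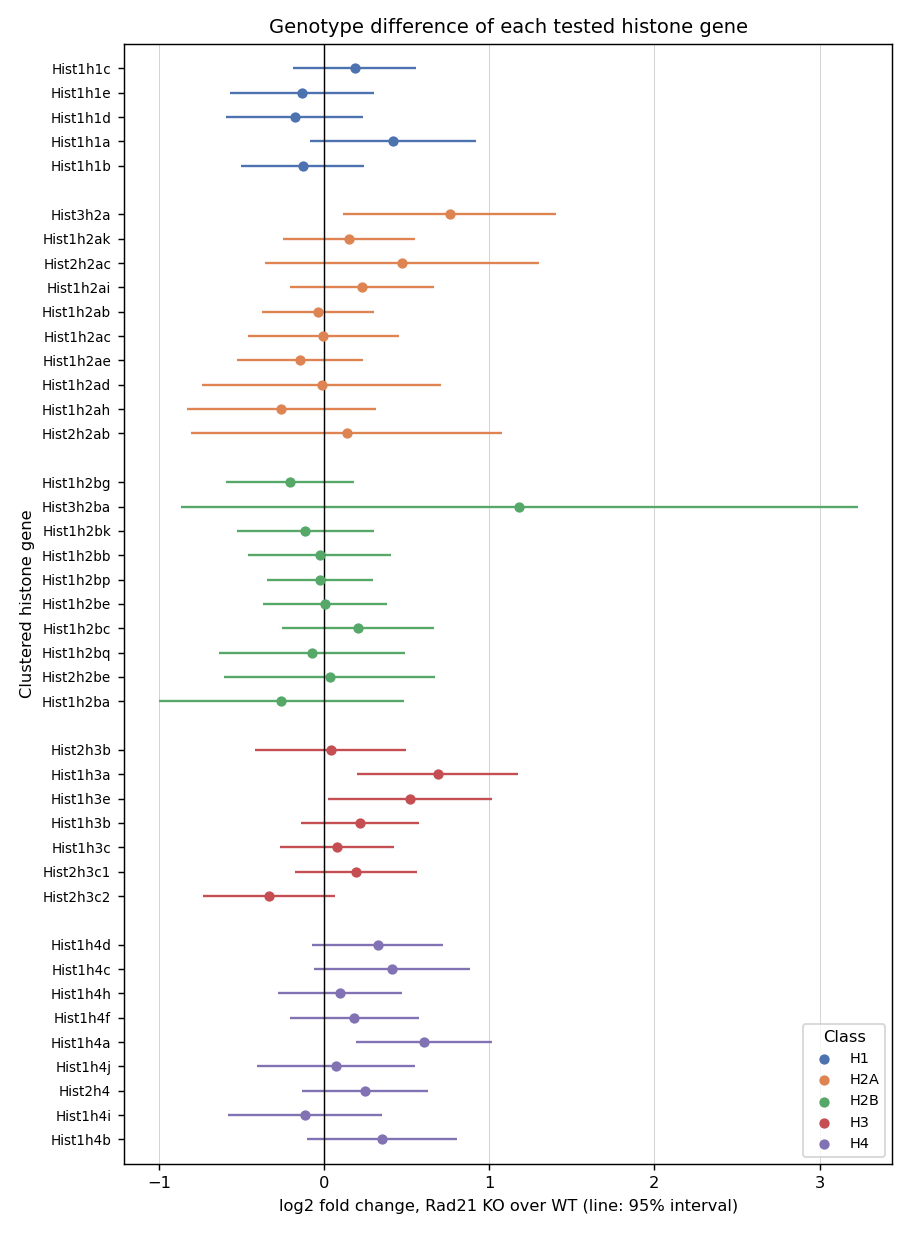
Fitted log2 fold change of each of the 41 tested clustered histone genes, Rad21 KO over WT, with its 95% interval as a line; genes run down the page by class and colours mark the class. Most intervals cross 0, 4 genes (Hist3h2a, Hist1h3a, Hist1h3e and Hist1h4a) lie wholly above it, and Hist3h2ba has the widest interval, from -0.87 to 3.23.

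The 3 most abundant members were linker histone genes. Hist1h1c, which encodes a somatic linker H1, stood at 1311 and 1575 CPM in Rad21 KO and at 1415 and 1124 CPM in WT, a log2 fold change of 0.18 (SE 0.16). Hist1h1e, another somatic H1 gene, stood at 722 and 846 CPM in Rad21 KO and at 1018 and 701 CPM in WT, a log2 fold change of -0.13 (SE 0.19). Hist1h1d, the third by level, stood at 651 and 748 CPM in Rad21 KO and at 930 and 653 CPM in WT, a log2 fold change of -0.18 (SE 0.18). In all 3 the genotypes overlapped, with WT replicate 1 the highest library for Hist1h1e and Hist1h1d and Rad21 KO replicate 2 the highest for Hist1h1c. Without WT replicate 1 the fold changes of Hist1h1e and Hist1h1d changed sign, to 0.16 and 0.10. The median over the 5 tested H1 genes was -0.13. The sixth, Hist1h1t, a linker gene known from testis, had only 1 and 5 counts in Rad21 KO and 4 and 4 in WT and was not tested.

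Per kilobase of RefSeq gene length, which allows levels to be compared between genes, the same 3 H1 genes led the 38 members whose record was short enough to be a single message. Their means over the 4 libraries were 1871 CPM per kilobase for Hist1h1c, 1051 for Hist1h1e and 961 for Hist1h1d. Hist3h2a followed with 698, then Hist1h4d with 465 and Hist1h2bg with 446. Among these, Hist1h1c was above every other gene in each library, whereas Hist1h1e and Hist1h1d were closer to each other than the spread between replicates. Near-identical coding sequences within a class mean that reads may have been split or shared between members, so the order within a class is uncertain.

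**Figure D2:**
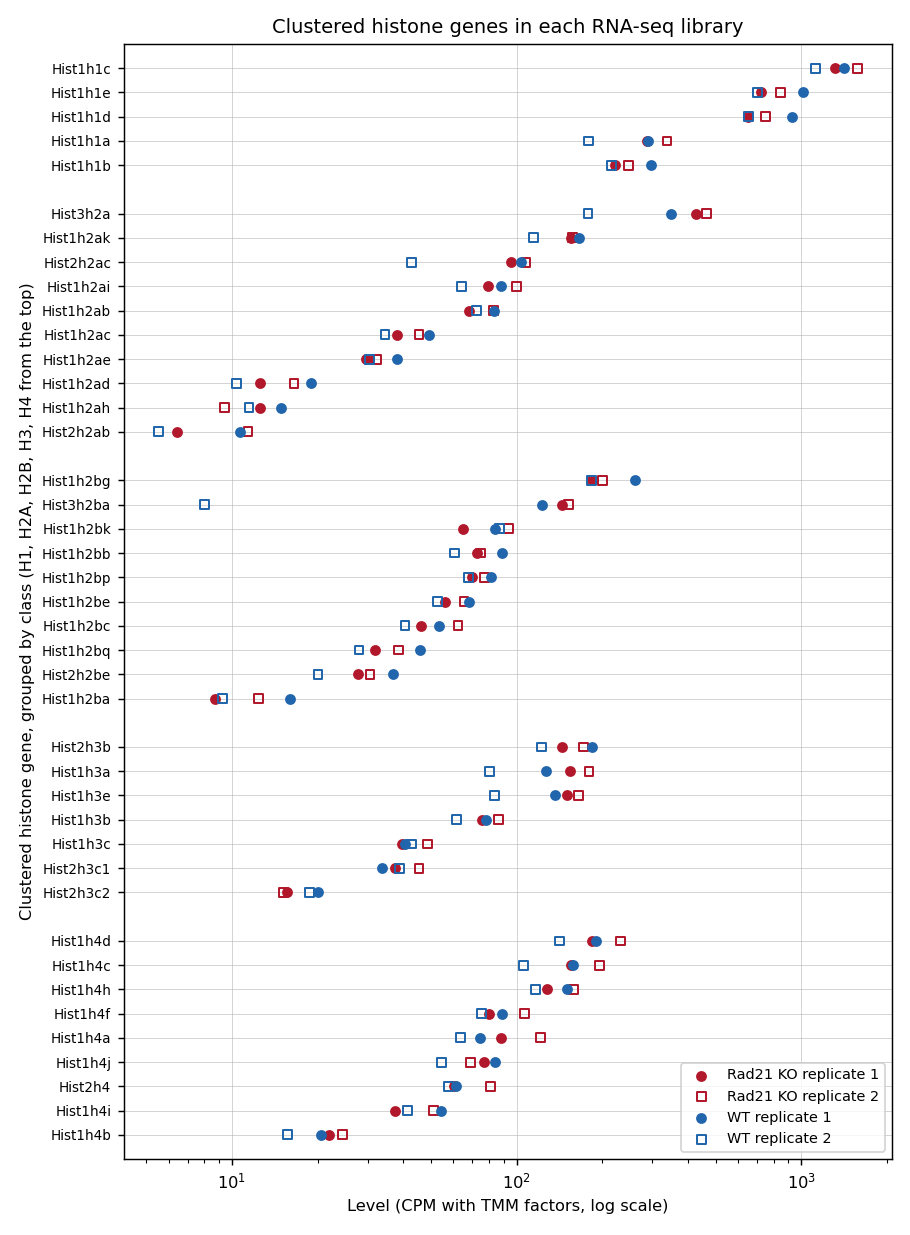
Level of each tested clustered histone gene in each library, in CPM on a log scale; red marks are Rad21 KO and blue marks WT, filled circles replicate 1 and open squares replicate 2. WT replicate 2 (open blue squares) is the lowest mark in most rows, and in Hist3h2ba it stands far to the left, at 8.03 CPM.

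Among the H2A genes, Hist3h2a was the most abundant. Its level was 428 and 465 CPM in Rad21 KO and at 349 and 178 CPM in WT, a log2 fold change of 0.76 (SE 0.27, edgeR adjusted p = 0.118). Both Rad21 KO libraries lay above both WT libraries, but the WT libraries were farther apart than WT replicate 1 was from either Rad21 KO library. Hist2h2ac stood at 95.3 and 108 CPM in Rad21 KO and at 104 and 42.7 CPM in WT (log2 fold change 0.47, SE 0.35, edgeR adjusted p = 0.427), with WT replicate 2 alone low. Hist1h2ak stood at 155 and 157 CPM in Rad21 KO and at 166 and 115 CPM in WT, a log2 fold change of 0.15 (SE 0.17). For Hist1h2ak the 2 Rad21 KO libraries lay between the WT libraries. Over the 10 tested H2A genes, 5 fold changes were above 0 and 5 below, with a median of 0.07. Hist1h2aa, known from testis, had counts of 0 and 2 in Rad21 KO and 1 and 0 in WT, under the floor of 3 counts per library (0.410 to 0.417 CPM).

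The H2B genes showed the member with the largest spread between replicates. Hist3h2ba had 1056 and 1097 counts in Rad21 KO and 899 and 58 counts in WT, which is 145 and 152 CPM in Rad21 KO and 123 and 8.03 CPM in WT. WT replicate 2 stood alone, 14.5-fold below WT replicate 1, while the other 3 libraries lay close together. The fitted log2 fold change of 1.18 therefore had an SE of 0.87 (edgeR adjusted p = 0.418). Without WT replicate 2 it was 0.27, and without WT replicate 1 it was 4.20, so 1 library sets its size. Hist1h2bg, the most abundant H2B gene, stood at 184 and 200.4 CPM in Rad21 KO and at 259.9 and 184 CPM in WT, a log2 fold change of -0.21 (SE 0.16). Hist1h2bk stood at 65.0 and 93.7 CPM in Rad21 KO and at 84.2 and 87.4 CPM in WT, a log2 fold change of -0.11 (SE 0.18). For Hist1h2bg only WT replicate 1 stood apart, above the other 3 libraries, and for Hist1h2bk only Rad21 KO replicate 1, below them. The median of the 10 tested H2B genes was -0.03, with 4 above 0. Hist1h2br had 3 and 2 counts in Rad21 KO and 9 and 6 in WT and was not tested.

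Most H3 and H4 genes had fold changes above 0, with none past the threshold. Hist1h3a stood at 154 and 180 CPM in Rad21 KO and at 127 and 80.5 CPM in WT, a log2 fold change of 0.69 (SE 0.21, edgeR adjusted p = 0.0742). DESeq2 put the same gene past the threshold, with a log2 fold change of 0.68 and an adjusted p of 0.0109. Hist1h3e stood at 150.4 and 165 CPM in Rad21 KO and at 136 and 83.5 CPM in WT, a log2 fold change of 0.52 (SE 0.21, edgeR adjusted p = 0.156). In both genes the Rad21 KO libraries lay above the WT libraries, with WT replicate 1 the nearer of the WT pair. Hist2h3b, the H3 gene with the highest mean level, stood at 144 and 171 CPM in Rad21 KO and at 184 and 123 CPM in WT, a log2 fold change of 0.04 (SE 0.19), with the Rad21 KO values inside the WT range. Of the 7 H3 genes, 6 had fold changes above 0, and the median was 0.19. The exception was Hist2h3c2, at 15.6 and 15.1 CPM in Rad21 KO and 20.1 and 18.7 CPM in WT, a log2 fold change of -0.33 (SE 0.17).

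The H4 genes all encode the same protein. Hist1h4a stood at 88.3 and 121 CPM in Rad21 KO and at 74.3 and 63.4 CPM in WT, a log2 fold change of 0.61 (SE 0.17) with the lowest edgeR adjusted p of the 41 genes, 0.0653. DESeq2 put it past the threshold (log2 fold change 0.60, adjusted p = 0.0273). Both Rad21 KO libraries were above both WT libraries, and the Rad21 KO libraries were the farther apart. Hist1h4d, the most abundant H4 gene, stood at 185 and 231 CPM in Rad21 KO and at 189.8 and 142 CPM in WT, a log2 fold change of 0.33 (SE 0.17). Hist1h4c stood at 155 and 195 CPM in Rad21 KO and at 158 and 106 CPM in WT, a log2 fold change of 0.41 (SE 0.20), and Hist1h4h at 128 and 158 CPM in Rad21 KO and at 151 and 117 CPM in WT, a log2 fold change of 0.10 (SE 0.16). In these 3 genes the groups overlapped, because WT replicate 1 lay above Rad21 KO replicate 1. Of the 9 H4 genes, 8 had fold changes above 0, and the median was 0.25.

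The members differed more between the WT libraries than between the genotypes. Of the 41 tested genes, 38 were higher in WT replicate 1 than in WT replicate 2, with a median log2 ratio of 0.46, beside 0.02 for all tested genes. The exceptions were Hist1h2bk, Hist1h3c and Hist2h3c1. The chi-square of the members' counts per degree of freedom compares their make-up and leaves out a shift common to all members. It was 23.3 for the WT pair, 11.3 for that pair without Hist3h2ba, and 3.35 for the Rad21 KO pair. In the Rad21 KO pair 38 of the 41 were higher in replicate 2, with a median log2 ratio of replicate 1 over replicate 2 of -0.23. Among the 9822 genes that averaged 5 CPM or more, 23 of the 41 exceeded the value that 5% of these genes exceed in WT replicate 1 over replicate 2. Hist3h2ba ranked 3 of 9822 in that ratio, Hist2h2ac 22, Hist3h2a 50, Hist2h2ab 69 and Hist2h2be 73, so that both Hist3 genes and the 3 H2A and H2B genes of the Hist2 locus ranked before every Hist1 gene.

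**Figure D3:**
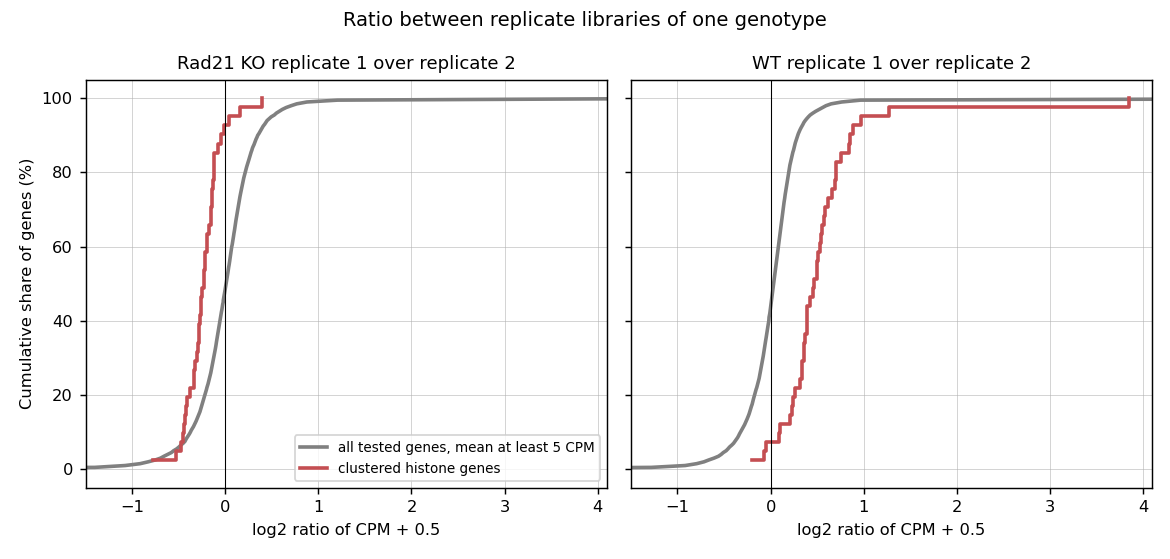
Cumulative share of genes against the log2 ratio of replicate 1 over replicate 2, for Rad21 KO on the left and WT on the right; the red line is the 41 clustered histone genes and the grey line the tested genes that averaged 5 CPM or more. In the WT panel the red line lies to the right of the grey one (median 0.46), and in the Rad21 KO panel mostly to its left (median -0.23).

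Which WT library was used decided what would be called. Without WT replicate 1, 8 of the 41 genes were higher in Rad21 KO past the threshold, namely Hist3h2ba, Hist3h2a, Hist2h2ac, Hist1h3a, Hist1h3e, Hist1h1a, Hist1h4a and Hist1h4c, against a background of 5.64% of all genes tested in that fit. Their log2 fold changes there ran from 0.72 for Hist1h4a to 4.20 for Hist3h2ba. Without WT replicate 2 the count was 0 (background 4.62%). The members' median was 0.32 on the log2 scale without WT replicate 1 and -0.09 without WT replicate 2. Without Rad21 KO replicate 1 the count was 1, Hist1h4a (0.83, background 7.03%), and without Rad21 KO replicate 2 it was 0 (background 6.52%). In each of these fits the lone library is assumed to vary like the other genotype's pair.

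Summed over all 44 genes, histone messages took 0.488% and 0.764% of all counts in Rad21 KO, against 0.798% and 0.568% in WT. The exact 95% binomial intervals, which cover counting error only, ran from 0.484% to 0.493% for Rad21 KO replicate 1, from 0.757% to 0.770% for Rad21 KO replicate 2, from 0.791% to 0.805% for WT replicate 1 and from 0.563% to 0.574% for WT replicate 2. In CPM the sums were 6275 and 7338 in Rad21 KO and 7231 and 5117 in WT. The means were 6807 ± 751 CPM in Rad21 KO and 6174 ± 1494 CPM in WT (SD, n = 2 each), so the genotypes differed by less than the WT libraries did. The log2 ratio of the means was 0.14, and it took the other sign with total counts in place of TMM factors (-0.13) and without WT replicate 2 (-0.09). With Lars2 and Gm15564 left out and TMM factors kept, it was 0.13. As a share of the counts outside Lars2 and Gm15564, histone messages took 0.746% and 0.874% in Rad21 KO and 0.847% and 0.614% in WT.

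The make-up of that sum by class was steadier than its size. H1 genes held 50.9% and 51.2% of clustered histone counts in Rad21 KO and 54.6% and 56.1% in WT, a mean of 51.0 ± 0.181% against 55.4 ± 1.08% (SD, n = 2 each). H2A genes held 14.7% and 14.0% in Rad21 KO and 12.7% and 11.0% in WT. H3 genes held 9.83% and 9.69% in Rad21 KO and 8.57% and 8.76% in WT. H4 genes held 13.3% and 14.1% in Rad21 KO and 12.2% and 13.1% in WT. In these classes the genotypes did not overlap, as in 58.9% of single tested genes by level. For H4 the nearest pair of libraries lay within counting error. The shares of a library add up to 100%, so the classes are not separate results. Within H2A, Hist3h2a alone held 6.82% and 6.33% of clustered histone counts in Rad21 KO and 4.82% and 3.48% in WT. H2B genes overlapped, with 11.3% and 11.0% in Rad21 KO and 11.9% and 10.9% in WT. A share does not depend on library scaling. These shares were not tested, since they are scores over the members.

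Ratios to H2A and H2B depended on the Hist3 pair, which was left out as an alternative after its values were seen. Counts of H3 and H4 genes over those of H1 genes were 0.454 and 0.466 in Rad21 KO and 0.380 and 0.390 in WT. Counts of H3 and H4 over H2A and H2B were 0.888 and 0.953 in Rad21 KO and 0.843 and 0.997 in WT, with the genotypes overlapping. With Hist3h2a and Hist3h2ba left out, the same ratio was 1.37 and 1.44 in Rad21 KO and 1.15 and 1.20 in WT, without overlap. H1 over H2A and H2B was 1.96 and 2.05 in Rad21 KO and 2.22 and 2.56 in WT with all members, without overlap. Without the Hist3 pair it was 3.02 and 3.08 in Rad21 KO and 3.02 and 3.06 in WT, with overlap. With the Hist3 pair left out, H1 had a like ratio to H2A and H2B in all 4 libraries. H3 and H4 stood higher against both in the Rad21 KO libraries, but with all members their ratio to H2A and H2B overlapped. These ratios were not tested. Hist3h2a alone held 46.3% and 45.2% of H2A counts in Rad21 KO, against 37.8% and 31.6% in WT.

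**Figure D4:**
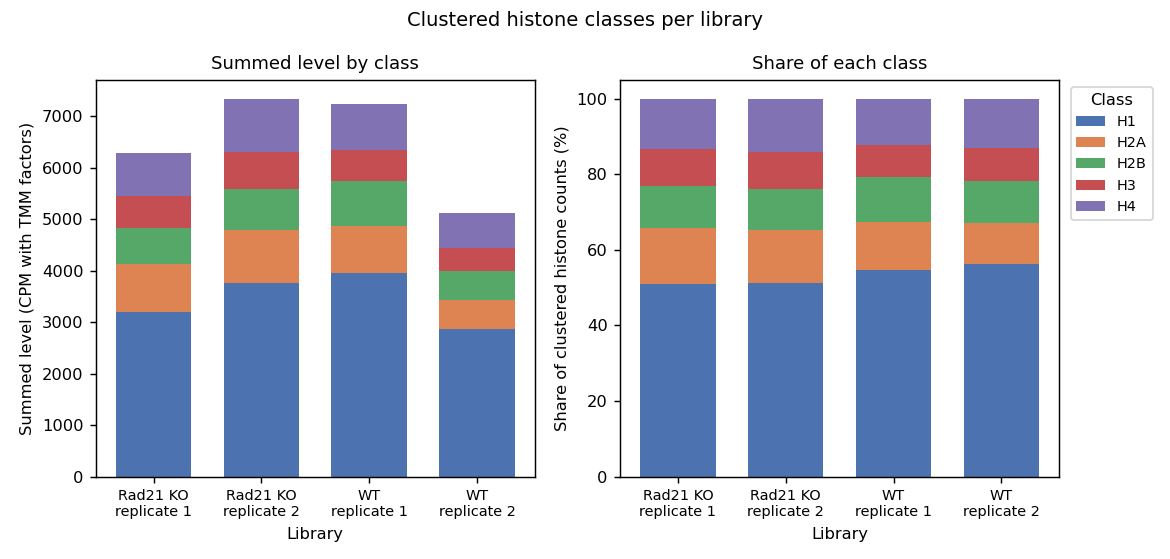
Clustered histone genes summed by class in each library, as CPM on the left and as a percentage of all clustered histone counts on the right, with the Rad21 KO libraries left of the WT libraries. The sums of Rad21 KO replicate 2 and WT replicate 1 are the highest (7338 and 7231 CPM) and that of WT replicate 2 the lowest (5117 CPM), while the H1 share is 50.9% and 51.2% in Rad21 KO and 54.6% and 56.1% in WT.

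Promoters are shown for 5 members, the Hist3 pair because WT replicate 2 set them apart and the most abundant H2B, H4 and H1 genes beside them. Each sequence is the 250 bases before the RefSeq start on the plus strand of GRCm38.p6, and capitals mark matches on either strand to 5 short motifs. The TATA box was searched as the letters TATAAA, the CCAAT box by its name, the octamer as the letters ATTTGCAT, the H1 box as the letters AAACACA and the core of the H4 element as the letters GGTCCG. No motif holds another. The Hist3h2ba window is chr11:58948661-58948910, that of Hist3h2a chr11:58954435-58954684, that of Hist1h2bg chr13:23571150-23571399, that of Hist1h4d chr13:23581318-23581567 and that of Hist1h1c chr13:23738557-23738806.
Hist3h2ba: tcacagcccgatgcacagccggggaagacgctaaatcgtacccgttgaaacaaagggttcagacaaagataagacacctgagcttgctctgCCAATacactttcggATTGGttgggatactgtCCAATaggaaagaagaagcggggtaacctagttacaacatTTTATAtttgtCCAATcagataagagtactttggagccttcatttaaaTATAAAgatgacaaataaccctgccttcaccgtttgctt
Hist3h2a: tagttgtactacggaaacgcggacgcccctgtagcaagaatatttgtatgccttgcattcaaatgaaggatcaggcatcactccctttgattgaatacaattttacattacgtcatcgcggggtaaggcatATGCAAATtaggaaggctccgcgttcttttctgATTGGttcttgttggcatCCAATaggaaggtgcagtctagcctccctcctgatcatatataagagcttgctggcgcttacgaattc
Hist1h2bg: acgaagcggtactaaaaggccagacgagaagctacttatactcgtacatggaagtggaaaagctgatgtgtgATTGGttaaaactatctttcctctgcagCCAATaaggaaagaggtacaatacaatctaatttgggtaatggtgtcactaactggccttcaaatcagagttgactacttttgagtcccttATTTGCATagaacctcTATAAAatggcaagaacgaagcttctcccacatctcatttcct
Hist1h4d: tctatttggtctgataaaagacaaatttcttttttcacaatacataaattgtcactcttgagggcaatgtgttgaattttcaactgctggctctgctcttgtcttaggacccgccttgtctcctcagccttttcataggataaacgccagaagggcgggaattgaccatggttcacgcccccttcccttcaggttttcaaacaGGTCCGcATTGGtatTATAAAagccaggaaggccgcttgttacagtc
Hist1h1c: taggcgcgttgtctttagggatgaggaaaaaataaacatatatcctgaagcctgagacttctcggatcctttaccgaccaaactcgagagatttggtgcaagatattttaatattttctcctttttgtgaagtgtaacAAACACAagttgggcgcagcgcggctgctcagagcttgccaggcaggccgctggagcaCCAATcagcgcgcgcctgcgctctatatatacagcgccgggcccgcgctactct
Counted from the start, Hist3h2ba has TATAAA at position -39 and CCAAT at -159, -127 and -76, with a match on the other strand at -144. Hist3h2a holds no TATAAA in this window, CCAAT at -68 and an octamer on the other strand at -119. Hist1h2bg has the octamer at -59 and TATAAA at -43, and Hist1h4d has GGTCCG at -47 and TATAAA at -32. Hist1h1c has AAACACA at -112 and CCAAT at -54.

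Windows of 300 bases, which add the 50 bases after the start, were found for 40 of the 44 members in the RefSeq promoter table. CCAAT occurred in 35 of these 40, against 37.4% of the 32851 windows of all genes, and TATAAA in 25 (62.5%), against 13.6%. By class, CCAAT was in 3 of 8 H4 windows (37.5%) and in every window of the other classes. TATAAA was in 1 of 6 H3 windows (16.7%) and in 62.5% to 81.8% of the windows of the other classes. Some letters followed the class of the gene. ATTTGCAT, the octamer known from H2B promoters, was in 7 of 11 H2A and 4 of 9 H2B windows and in 0 of the H1, H3 and H4 windows, against 1.74% of all. AAACACA was in 5 of 6 H1, 2 of 11 H2A and 1 of 9 H2B windows and in 0 of the H3 and H4 windows, against 7.18% of all. GGTCCG was in 7 of 8 H4 windows and in 0 of the other classes, against 8.25% of all. A match is a description of letters, not evidence that a factor binds. For 3 pairs of an H2B and an H2A gene the windows overlapped, so that the genes are read in opposite directions from a shared stretch. In Hist1h2bg and Hist1h2ae, such a pair, the levels differed several-fold (184 and 200.4 CPM against 29.7 and 32.2 CPM in Rad21 KO, and 259.9 and 184 CPM against 38.1 and 30.5 CPM in WT), while the log2 fold changes were -0.21 and -0.15.

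Histone genes outside the clusters mostly make messages with poly(A) tails that are not restricted to S phase. They gave 0 calls among 9 tested (background 12.8%). At an unadjusted p under 0.05 there were 3 of the 9 (background 29.4%), and the median log2 fold change was -0.13. H3f3b, which encodes the replacement histone H3.3, stood at 2131 and 2406 CPM in Rad21 KO and at 1996 and 1735 CPM in WT (log2 fold change 0.28, SE 0.14). H3f3a, which encodes the same protein, stood at 395 and 375 CPM in Rad21 KO and at 467 and 437 CPM in WT (log2 fold change -0.23, SE 0.10). H2afy, the gene of macroH2A, stood at 283 and 259 CPM in Rad21 KO and at 302 and 298 CPM in WT (log2 fold change -0.15, SE 0.10). The genotypes did not overlap in any of these 3, as in 58.9% of all tested genes, and none passed the threshold. Their median log2 ratio of WT replicate 1 over replicate 2 was 0.10, beside 0.46 for the clustered genes.

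Among 27 tested genes for the transcription, 3′ end formation and decay of clustered histone messages, 0 passed the threshold (background 12.8%). Of the 27, 4 had an unadjusted p under 0.05 (background 29.4%). Npat and Ccne2 were higher in Rad21 KO, and Cdk2 and Sympk lower. Cdk2 had the lowest edgeR adjusted p of the list, 0.0626, at a log2 fold change of -0.42 (SE 0.12). That of Sympk was -0.37 (SE 0.11). The median log2 fold change of the 27 was -0.01. The most abundant were Pou2f1, whose product binds the octamer of H2B promoters (211 and 313 CPM in Rad21 KO, 227 and 260 CPM in WT), Casp8ap2, a component of the nuclear body at histone loci (110.1 and 139 CPM in Rad21 KO, 139.6 and 137 CPM in WT), and Sympk, a scaffold of 3′ processing (97.7 and 111 CPM in Rad21 KO, 130.1 and 141 CPM in WT). Npat, the coactivator of clustered histone genes, was looked at after its values were seen. Its level was 101 and 121 CPM in Rad21 KO and at 88.4 and 49.0 CPM in WT, a log2 fold change of 0.69 (SE 0.26, edgeR adjusted p = 0.129). Like Hist3h2a and Hist2h2ac, it had its lowest value in WT replicate 2, and without WT replicate 1 its log2 fold change was 1.17. With all libraries, DESeq2 put Npat past the threshold (log2 fold change 0.69, adjusted p = 0.0409). Ccne2, a cyclin of S phase entry, passed without Rad21 KO replicate 1 (0.79). Slbp, chosen in the same way, stood at 78.2 and 86.6 CPM in Rad21 KO and at 66.1 and 70.9 CPM in WT (log2 fold change 0.27, SE 0.12, edgeR adjusted p = 0.194).

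Of 29 histone chaperone and import genes, 1 was higher and 1 lower in Rad21 KO, a smaller share than the background of 12.8%. Ipo4, an importin that carries H3 and H4 to the nucleus, stood at 34.5 and 12.5 CPM in Rad21 KO and at 4.37 and 5.12 CPM in WT, a log2 fold change of 2.30 (SE 0.48, edgeR adjusted p = 0.0260). Both Rad21 KO libraries were above WT, though far from each other, and limma-voom did not call it. Hjurp, which loads the centromeric H3 variant Cenpa, stood at 225 and 197 CPM in Rad21 KO and at 288 and 391 CPM in WT, a log2 fold change of -0.69 (SE 0.16, edgeR adjusted p = 0.0348). Ipo4 kept its call with each library left out, at a log2 fold change of 1.40 without Rad21 KO replicate 1 and 2.87 without Rad21 KO replicate 2. The call of Hjurp was lost without Rad21 KO replicate 2 and without WT replicate 2, where Atrx (-0.69) and Anp32e (-0.71) were the members called lower.

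Genes of DNA replication gave 3 higher and 0 lower of 30 tested, close to the background of 7.6% higher. Pcna, the sliding clamp of DNA polymerase, stood at 177 and 219.7 CPM in Rad21 KO and at 141 and 132 CPM in WT (log2 fold change 0.54, SE 0.13, edgeR adjusted p = 0.0377). Cdt1, which licenses replication origins, stood at 35.0 and 42.7 CPM in Rad21 KO and at 21.9 and 21.1 CPM in WT (log2 fold change 0.86, SE 0.16, edgeR adjusted p = 0.0183). Pold1, the catalytic subunit of DNA polymerase delta, stood at 46.5 and 58.5 CPM in Rad21 KO and at 31.6 and 19.5 CPM in WT (log2 fold change 1.04, SE 0.24, edgeR adjusted p = 0.0341). In each of these 3 both Rad21 KO libraries lay above both WT libraries, and the median of the list was 0.08. Without Rad21 KO replicate 2, and also without WT replicate 2, Cdt1 alone passed as higher, and without Rad21 KO replicate 2 Uhrf1 passed as lower (-0.68). In the Rad21 KO pair 28 of the 30 were higher in replicate 2, with a median log2 ratio of replicate 1 over replicate 2 of -0.23, as in the clustered histone genes. In the WT pair the median was -0.07, where the clustered genes had 0.46. The share of cells in S phase was not measured, and its part in these values was not tested. The 5 markers of cycling cells gave 0 calls (background 12.8%). Mki67 stood at 154 and 182 CPM in Rad21 KO and at 198 and 192 CPM in WT.

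Protein-coding genes beside the histone genes, looked at after the members' values were seen, comprised 23 tested genes within the loci or among the 5 nearest on each side. Of these, 3 were higher in Rad21 KO (Trim11, Abt1 and Ripor2) and 2 lower (Cmah and 2810021J22Rik), against backgrounds of 7.6% and 5.17%. Trim11, a ubiquitin ligase gene at the Hist3 locus, stood at 300.3 and 316 CPM in Rad21 KO and at 175 and 151 CPM in WT, a log2 fold change of 0.92 (edgeR adjusted p = 0.00398). Cmah, at the Hist1 locus, stood at 81.6 and 106 CPM in Rad21 KO and at 241 and 196 CPM in WT, a log2 fold change of -1.22 (edgeR adjusted p = 0.00565). In WT replicate 1 over replicate 2, the neighbours had a median log2 ratio of 0.10, and the 9 at the Hist3 locus ran from -0.48 to 0.53, where Hist3h2ba had the 14.5-fold difference given above. The highest of these 9 ratios, 0.53, belonged to Rnf187.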

How the data were processed

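RNA-seq was made from 2 Rad21 KO and 2 WT samples of sorted double-positive thymocytes. Ribosomal RNA was depleted before library preparation, per the labels' protocols. The authors deposited estimated counts per Ensembl gene, called count equivalents, and all are whole numbers. The submitters' processing notes name mm9 as the build. Aligner, counter and strand setting are not given in the sources consulted, which leaves genes with near-identical copies or an overlapping partner with uncertain counts. The Rad21 KO columns are spelled Rad1KO and were matched by cell type and replicate label. The ChIP peak lists are in mm9 coordinates and were not used here, and Hi-C was not analysed here.

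Symbols were found for 17342 of 17849 identifiers. The whole table, its counts rounded to integers (which changed none), was tested in R 4.3.3 with edgeR 4.0.16 (filterByExpr, TMM factors, quasi-likelihood test of genotype, Benjamini-Hochberg adjustment over 12003 genes, threshold 0.05). CPM are counts scaled with the TMM factors, and ratios between replicates used CPM + 0.5. A floor of 3 counts equals 0.410 to 0.417 CPM. Alternatives used DESeq2 1.42.0, limma-voom (limma 3.58.1), RLE factors, no filter, a replicate block, each library left out, Lars2 and Gm15564 left out, and a scaling to the summed histone counts that was added after the data were seen. Promoter sequences and the order of neighbouring genes come from RefSeq (GRCm38.p6) and were joined by gene, not by coordinate.

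The members and lists were chosen with earlier results of these data known. Named genes are Rad21, clustered histone genes past the threshold, the 3 with the highest mean CPM in each class, the 6 with the largest change at a mean of 5 CPM or more and, from other lists, those past the threshold or else the 3 of highest mean CPM. Others account for a count or were chosen after their values were seen. The labels do not say that a replicate number marks a shared animal, day or batch, so the libraries were not treated as paired.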

Additional observations from a re-analysis of the deposited data

How the results depend on the processing

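No clustered histone gene was called lower in any alternative tried. The count called higher was 0 with limma-voom, RLE factors, no filter, the replicate block and without Lars2 and Gm15564, 2 with DESeq2, 1 (Hist3h2ba, adjusted p = 0.0247 by edgeR) with libraries scaled to summed histone counts, and 0 to 8 with each library left out in turn. Over all genes, 912 higher and 621 lower became 285 and 148 without the filter and 644 and 381 with the replicate block, and ran from 574 to 880 higher and 373 to 558 lower with a library left out. Regulators of histone messages gave 1 higher with DESeq2 and 0 to 1 with a library left out. Chaperones gave 0 higher with limma-voom and without the filter, and 3 lower with DESeq2, 2 with limma-voom and 0 without the filter or with the replicate block. S phase genes gave 0 higher without the filter, 1 with the replicate block (Cdt1), and 1 to 4 higher and 0 to 1 lower with a library left out. Under the histone scaling the sign of the log2 fold change turned in 7 of the 41 members, among the 16 named by rule in Hist1h4h (-0.058) and Hist2h3b (-0.095). With a library left out, the values ran from -0.093 to 0.44 for Hist1h2ak, -0.39 to 0.14 for Hist1h2bk, -0.083 to 0.29 for Hist1h4h, -0.41 to 0.10 for Hist1h1d, -0.44 to 0.062 for Hist1h2bg, -0.38 to 0.16 for Hist1h1e, -0.037 to 1.25 for Hist2h2ac and -0.23 to 0.36 for Hist2h3b. The cause was not tested, except that a fit with a library left out has fewer libraries, and one without the filter more genes to adjust over, by construction. The replicate block changed no call among the clustered histone genes, and its numbers pair libraries by label alone, since the deviations of same-numbered libraries had a correlation of 0.034 over all tested genes and 0.136 over the clustered histone genes. With 2 libraries per genotype, the median interval of a member, unadjusted for the number of genes, reached 0.44 log2 units to either side. Differences under that could not be resolved for a typical member, and larger ones could also go uncalled. Hist3h2a (0.76, edgeR adjusted p = 0.118) and Hist1h3a (0.69, edgeR adjusted p = 0.0742) did not pass the threshold.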
